A study of Homo sapiens with 30 samples.

Results

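H929 is a human multiple myeloma cell line, grown from malignant plasma cells, the antibody-secreting end stage of the B cell lineage. The 6 libraries described here are those whose labels name H929 together with dBRD9-A (3 libraries) or with its solvent DMSO (3 libraries), out of 30 samples listed in the series. Cells of both groups were kept in the same medium and harvested after 24 h, with 100 nM dBRD9-A in one group and DMSO in the other, and poly(A)-selected RNA was sequenced with a stranded kit. Another 6 libraries, from the myeloma line OPM2 under the same treatments, served only for the test of whether the response differed between the lines. The line is 1 established culture, and the labels do not say whether the 3 replicates of a group were cultured apart. The p-values below therefore rest on a spread between libraries that may be only technical.

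The H929 libraries held 65682734, 61189748 and 58421024 counts with DMSO and 48592398, 42897863 and 60129575 with dBRD9-A, and 15015 to 15452 genes reached 10 counts in each. Libraries deviated from their group mates with an SD of 0.139 to 0.235 on the log2 scale, and in dBRD9-A replicates 1 and 2 this deviation correlated across genes with transcript GC content in opposite directions (Spearman -0.63 and 0.66). All 10 plasma cell markers checked had counts in every library, among them SDC1, the syndecan CD138, at 905, 837 and 964 CPM (counts scaled to the size of the library) with DMSO and 899, 954 and 752 with dBRD9-A. XBP1, the transcription factor of the secretory programme, stood at 2216, 2197 and 2267 CPM with DMSO. With DMSO, 10 mature B cell markers summed to 4.52 to 5.66 TPM (scaled to transcript length as well), against 9100 to 9851 TPM for the plasma cell markers. Plasma cell markers are thus present, as the labelled cell type says, and their changes with dBRD9-A are given below.

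BRD9 is a bromodomain protein found only in the non-canonical BAF complex (ncBAF), a form of the SWI/SNF family that uses ATP to move nucleosomes. dBRD9-A is a bifunctional small molecule that links BRD9 to the cereblon ubiquitin ligase, so that the protein is degraded. Protein was not measured in these libraries, and the transcript of BRD9 is no measure of its degradation. Myeloma cells depend on MYC, a transcription factor that binds E-boxes with its partner MAX and drives ribosome production and growth, and on IRF4, which holds the plasma cell programme in place. Type I interferon genes respond to the factor ISGF3, which binds the interferon-stimulated response element (ISRE) in their promoters.

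Promoters of 4 genes from the interferon response and 3 from ribosome and protein production are shown as examples of genes that rose or fell and hold a motif of their group near the start. Each stretch runs 5′ to 3′ on the strand of the gene from 170 bases before to 30 bases after the RefSeq start, in build GRCh38.p14. In the first 4 the capitals mark the ISRE core, GAAANNGAAA on either strand, and in the last 3 the E-box CACGTG. A match is a description of letters, not a measured binding site.
DTX3L (chr3:122564168-122564367, + strand): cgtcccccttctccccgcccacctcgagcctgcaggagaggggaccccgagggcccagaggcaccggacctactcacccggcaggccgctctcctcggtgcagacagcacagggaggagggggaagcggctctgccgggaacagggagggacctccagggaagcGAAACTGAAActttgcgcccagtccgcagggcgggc
IFIT5 (chr10:89414398-89414597, + strand): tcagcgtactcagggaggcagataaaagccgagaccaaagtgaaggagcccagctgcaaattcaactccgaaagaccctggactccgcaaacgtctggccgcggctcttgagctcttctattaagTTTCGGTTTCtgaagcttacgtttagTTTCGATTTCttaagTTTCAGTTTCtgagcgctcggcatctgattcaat
IFIT3 (chr10:89327827-89328026, + strand): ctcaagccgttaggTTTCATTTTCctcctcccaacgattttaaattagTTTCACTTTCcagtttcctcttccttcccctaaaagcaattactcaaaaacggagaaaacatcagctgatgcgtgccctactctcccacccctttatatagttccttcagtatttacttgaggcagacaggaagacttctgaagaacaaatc
LGALS3BP (chr17:78979894-78980093, - strand): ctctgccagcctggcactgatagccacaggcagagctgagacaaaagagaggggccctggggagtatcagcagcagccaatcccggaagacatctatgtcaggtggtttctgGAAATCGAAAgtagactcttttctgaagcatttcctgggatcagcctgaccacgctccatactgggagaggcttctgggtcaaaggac
CD3EAP, named POLR1G in RefSeq (chr19:45406474-45406673, + strand): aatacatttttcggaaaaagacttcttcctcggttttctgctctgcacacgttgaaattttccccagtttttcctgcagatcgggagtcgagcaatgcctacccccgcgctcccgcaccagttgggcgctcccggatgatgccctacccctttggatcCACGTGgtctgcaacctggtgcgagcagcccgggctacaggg
RRP9 (chr3:51941875-51942074, - strand): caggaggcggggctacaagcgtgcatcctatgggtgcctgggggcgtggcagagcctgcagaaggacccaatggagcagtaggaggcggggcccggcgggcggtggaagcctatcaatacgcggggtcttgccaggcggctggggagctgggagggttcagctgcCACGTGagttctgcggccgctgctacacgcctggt
MARS2 (chr2:197705199-197705398, + strand): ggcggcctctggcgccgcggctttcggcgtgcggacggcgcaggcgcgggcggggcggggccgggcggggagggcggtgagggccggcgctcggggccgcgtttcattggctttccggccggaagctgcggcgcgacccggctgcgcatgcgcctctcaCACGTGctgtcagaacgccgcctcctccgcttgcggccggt
The core of DTX3L, a ubiquitin ligase that pairs with PARP9, starts 6 bases before the start of the transcript. IFIT5, which binds viral RNA, has 3 cores, at 45, 19 and 4 bases before its start. In IFIT3, another member of that family, the 2 cores lie 156 and 122 bases before the start, and in LGALS3BP, which encodes a secreted glycoprotein, the single core lies 58 bases before it. The E-boxes of CD3EAP, a subunit of RNA polymerase I, RRP9, a component of the U3 snoRNP, and MARS2, the mitochondrial methionyl-tRNA synthetase, start 12, 5 and 11 bases before the start.

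Of 15420 genes tested, 4973 (32.3%) passed an adjusted p of 0.05 in edgeR's quasi-likelihood test, 2456 higher (15.9%) and 2517 lower (16.3%) with dBRD9-A. In 7278 genes (47.2%) the libraries of the groups did not overlap. The called sides were close in number but not in size. Among the called genes, 797 rose and 184 fell at least 2-fold, 192 rose and 18 fell at least 4-fold, and 49 rose and 2 fell at least 8-fold. Falls were most frequent among abundant transcripts: of the 3855 genes with the highest level 23.5% were called lower and 9.21% higher, and of the 3855 with the lowest level 5.76% were called lower and 19.6% higher. The median log2 fold change of the genes called higher was 1.26 in the lowest of these level classes and 0.43 in the highest. For the genes called lower it was -0.94 and -0.45, so calls at low levels were larger on both sides. Because bulk RNA was measured relative to the total of each library, a change in all transcripts together cannot be seen, and fewer cells and less RNA per cell cannot be told apart. With plain library sizes in place of TMM scaling, rises made up 65.1% of the calls in place of 49.4%, and the median over all genes was 0.08 in place of -0.01 on the log2 scale.

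**Figure D1:**
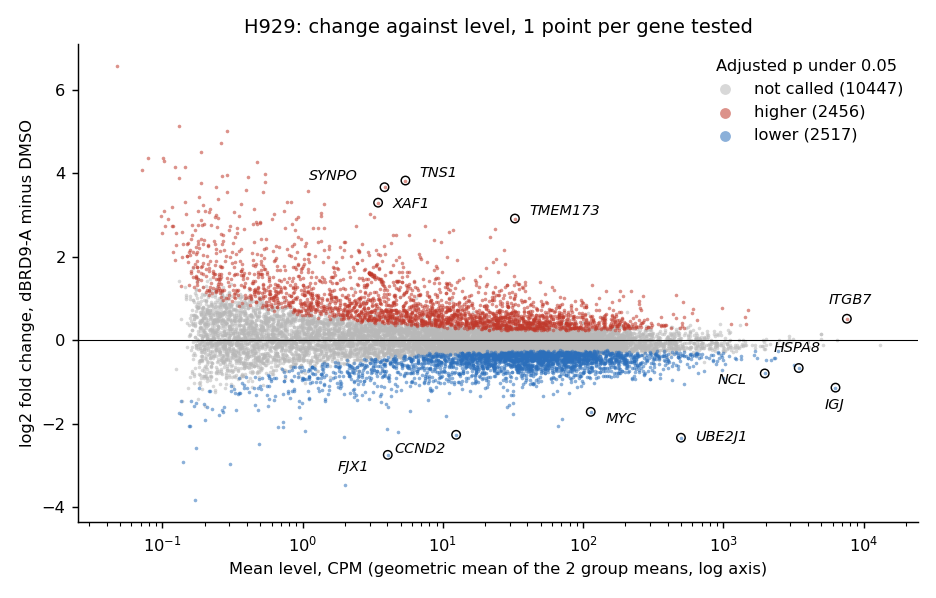
Log2 fold change (dBRD9-A minus DMSO) against mean level in CPM on a log axis, 1 point per gene tested in H929, with genes called higher in red, called lower in blue and the others in grey. Rises of more than 2 log2 units lie mostly at low levels, while UBE2J1 at -2.33 and MYC at -1.71 fell at high ones.

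BRD9 itself, read from a RefSeq entry labelled noncoding, had 78.0, 98.7 and 77.6 CPM with DMSO and 56.8, 58.2 and 69.9 with dBRD9-A. All treated libraries were below all DMSO libraries, and the transcript fell by 0.46 on the log2 scale (SE 0.12, adjusted p = 0.0138 in edgeR). Leaving out DMSO replicate 2 (log2 fold change -0.32, adjusted p = 0.077) or dBRD9-A replicate 1 (-0.39, adjusted p = 0.0637) ended this call. GLTSCR1L, one of a pair of alternative scaffold subunits particular to ncBAF, rose from 39.9, 42.9 and 46.5 CPM to 67.9, 58.5 and 61.8 (log2 fold change 0.54, SE 0.10, adjusted p = 0.002). Its counterpart GLTSCR1 stood at 21.0, 20.6 and 25.7 CPM with DMSO and at 26.5, 28.9 and 25.6 with dBRD9-A, and was not called (0.27, adjusted p = 0.0836). Of 14 ncBAF genes tested, 2 were called higher and 4 lower, with a median of -0.13 beside -0.01 over all genes, and the count lower went to 0 without DMSO replicate 2 or dBRD9-A replicate 1. In the canonical BAF and PBAF complexes 2 of 14 genes were called higher and 2 lower (median -0.09), beside 15.9% and 16.3% of all genes tested. The higher ones were ARID1A, the DNA-binding subunit of canonical BAF, from 300, 357 and 390 CPM to 538, 494 and 602 (log2 fold change 0.64), and its paralog ARID1B (0.43, adjusted p = 0.012). The lower ones were DPF1, a subunit with paired PHD fingers (-0.49), and SMARCD2, one of the BAF60 subunits (-0.31), and this count went to 0 without DMSO replicate 2, DMSO replicate 3, dBRD9-A replicate 1 or dBRD9-A replicate 3.

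MYC fell by 1.71 on the log2 scale (SE 0.26, adjusted p = 0.00068), from 135, 269 and 210 CPM to 57.2, 44.6 and 85.9. The groups did not overlap, but each varied, and the highest DMSO library was replicate 2 and the highest treated library replicate 3. Of 12 tested genes of the MYC and MAX-MXD network, 5 were called lower and 2 higher, beside 16.3% and 15.9% of all genes tested. MXD4, which competes with MYC for MAX, rose from 24.5, 28.2 and 24.4 CPM to 39.1, 41.0 and 45.5 (0.70, adjusted p = 0.00055), and MLXIP, a glucose-responsive partner of MLX, rose by 0.54. MNT, another MAX-binding repressor, fell by 0.62 (adjusted p = 0.00348). MIR17HG, the host transcript of the miR-17-92 cluster and a known MYC target, went from 7.48, 14.1 and 9.76 CPM to 3.41, 1.70 and 4.49 (log2 fold change -1.69, SE 0.30, adjusted p = 0.00181). The count of network genes lower was 2 without DMSO replicate 2 and 3 without DMSO replicate 3 or dBRD9-A replicate 3.

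**Figure D2:**
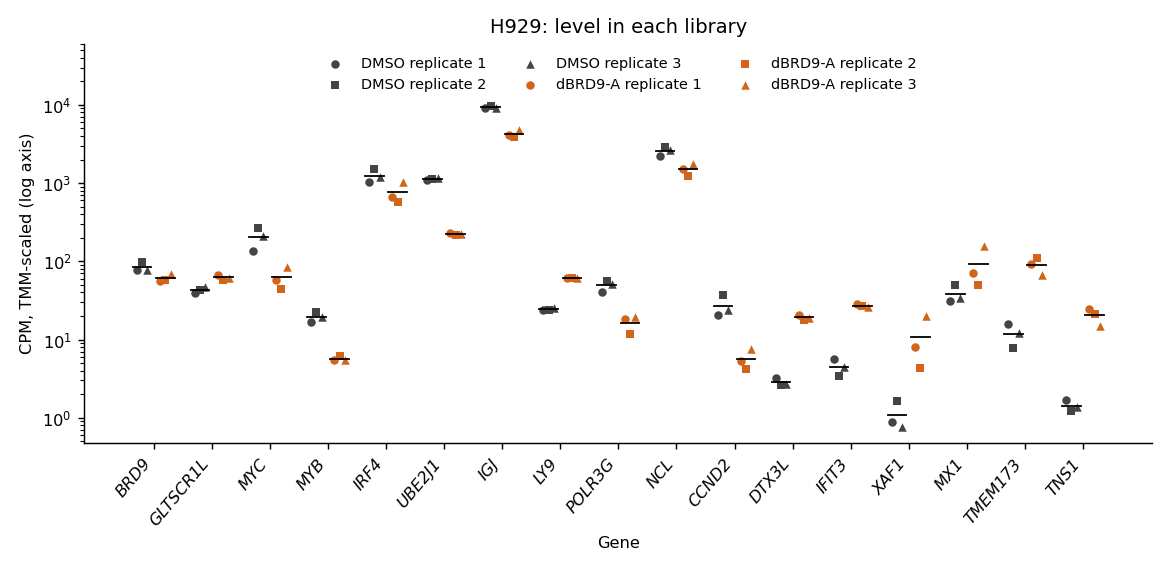
CPM on a log axis of 17 genes in each H929 library, DMSO in grey and dBRD9-A in orange, with a symbol per replicate and a black line at each group mean. UBE2J1, LY9, DTX3L and IFIT3 are tight within groups, whereas in XAF1 and MX1 the treated libraries spread widely, with replicate 3 highest and replicate 2 lowest.

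Among 28 tested transcription factors of B cells and plasma cells, 10 were called higher and 4 lower (median 0.26). The shares over all genes tested were 15.9% and 16.3%. MYB, a factor of progenitor and activated cells, fell by 1.80 (SE 0.13, adjusted p = 9.68e-06), from 17.0, 22.4 and 19.7 CPM to 5.46, 6.09 and 5.43. KLF2, a factor of resting lymphocytes, fell by 1.03, from 22.5, 20.2 and 26.9 to 11.78, 11.23 and 11.04 CPM. IRF4, read from a RefSeq entry labelled noncoding, stood at 1043, 1499 and 1205 CPM with DMSO and 668, 573 and 1042 with dBRD9-A (log2 fold change -0.71, SE 0.20, adjusted p = 0.018). The highest treated value of IRF4, in replicate 3, lay next to the lowest DMSO value, in replicate 1, and its adjusted p was 0.066, 0.078 and 0.0657 without DMSO replicate 2, dBRD9-A replicate 1 or dBRD9-A replicate 2. DESeq2 (adjusted p = 0.0701) and the edgeR fit over 12 libraries of both lines (adjusted p = 0.0564) also ended the call of IRF4, so that 5 of 19 other settings did. Members that rose include IKZF1, the Ikaros factor, from 98.4, 82.0 and 103 CPM to 150, 134 and 133 (0.55), its relative IKZF2 (1.13), POU2F2, which encodes the B cell octamer factor OCT2 (0.79), and ETS1, from 27.3, 34.2 and 27.4 to 45.3, 38.3 and 59.7 CPM (0.69). Without DMSO replicate 2 the count higher was 6, and without dBRD9-A replicate 1 the count lower was 2.

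Plasma cell surface and antibody genes moved in both directions, 7 of 37 higher and 12 lower (median -0.05), beside 15.9% and 16.3% of all genes tested. IGJ, the joining chain of secreted IgA and IgM, fell from 9233, 9644 and 9115 CPM to 4104, 3830 and 4822 (log2 fold change -1.13, SE 0.10, adjusted p = 3.87e-05). Of the 10 plasma cell identity markers, IGJ among them, 5 were called lower and 0 higher (median -0.29). They summed to 9100 to 9851 TPM with DMSO and 5599 to 6504 with dBRD9-A. IGJ alone had a mean of 6312 TPM with DMSO and 3120 with dBRD9-A. DERL3, a secretory cell member of the derlin family of ER membrane proteins, fell by 0.86, and IGLL5, an immunoglobulin lambda-like gene whose reads may be shared with the lambda locus, by 0.78. The antibody target SLAMF7 fell from 107, 150 and 136 CPM to 89.0, 72.3 and 94.8 (-0.62), and TNFRSF17, the B cell maturation antigen BCMA, from 526, 604 and 498 to 402, 358 and 481 (-0.39, adjusted p = 0.0292). That call of TNFRSF17 ended under 9 of 19 other settings. LY9, a SLAM family receptor, rose in the opposite direction to SLAMF7, from 24.2, 23.6 and 25.5 to 61.9, 61.0 and 61.9 CPM (1.33, SE 0.09, adjusted p = 6.19e-06), and GPRC5D, another target of myeloma therapy, rose by 0.67. PRDM1, the master repressor of the plasma cell state, was not called (-0.21, adjusted p = 0.222). The count lower went down to 5 without dBRD9-A replicate 1, 6 without DMSO replicate 2 and 7 without DMSO replicate 1, and the count higher to 4 without DMSO replicate 3 or dBRD9-A replicate 1.

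UBE2J1, a ubiquitin-conjugating enzyme anchored in the ER membrane that serves ER-associated degradation, had 1083, 1123 and 1148 CPM with DMSO and 231, 215 and 221 with dBRD9-A. This fall of 2.33 on the log2 scale (SE 0.09, adjusted p = 2.68e-07) combined a high level with a spread within groups far below the change. Of 23 genes tested in that pathway 4 were called lower and 1 higher, beside 16.3% and 15.9% of all genes tested. The median was -0.02, and the count lower was 2 without DMSO replicate 2 or dBRD9-A replicate 1. ER chaperones and genes of the unfolded protein response gave 3 higher and 8 lower of 47, with fold changes between -0.43 and 0.37, and 0 higher and 1 lower without DMSO replicate 2.

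Ribosome biogenesis factors fell as a block: 114 of 124 were called lower and 0 higher, beside 16.3% and 15.9% of all genes tested. Their fold changes ran from -1.21 to 0.03 with a median of -0.63. LYAR, a nucleolar processing factor, went from 87.6, 111 and 97.9 CPM to 39.9, 35.8 and 52.2 (log2 fold change -1.21, SE 0.14, adjusted p = 0.00016). RRP12, needed for export and maturation of the subunits, went from 116, 167 and 138 to 58.0, 61.8 and 79.6 CPM (-1.08), and RRP9 from 53.4, 77.3 and 61.6 to 26.6, 32.4 and 34.9 (-1.03). WDR3, of the small subunit processome, fell by 0.99, and FBL, the methyltransferase fibrillarin, by 0.59. Abundant nucleolar proteins took part: NCL, nucleolin, went from 2221, 2869 and 2672 CPM to 1514, 1223 and 1765 (-0.79), and NPM1, nucleophosmin, from 2745, 2677 and 2621 to 1906, 2022 and 2033 (-0.43). In all of the genes given here with their 6 values the groups were separate, as they were in 47.2% of all genes tested. These genes were chosen among the called members for their size of change or their level, so their separation adds no support. The list summed to 7624 to 9205 TPM with DMSO and 5572 to 6665 with dBRD9-A.

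The order of the libraries within a group recurred across this list. DMSO replicate 2 was the highest DMSO library and dBRD9-A replicate 3 the highest treated library in 104 of its 124 members (83.9%), as in MYC, against 3000 of all 15420 genes tested (19.5%). The same order held in 20 of 36 genes of RNA polymerases I and III, and in 0 of 78 cytosolic ribosomal proteins. This is a description of 6 libraries, and its part in the list's change was not tested. Between 99 and 114 members were called lower when 1 H929 library was left out.

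RNA polymerases I and III, which make ribosomal and transfer RNA, had 21 of 36 members lower and 1 higher (median -0.32). The shares over all genes tested were 16.3% and 15.9%. POLR3G, a polymerase III subunit of growing and undifferentiated cells, fell from 40.5, 56.8 and 51.8 CPM to 18.1, 11.9 and 19.2 (-1.60, SE 0.18, adjusted p = 0.00011). The member called higher was its paralog POLR3GL, from 37.0, 27.6 and 33.4 to 44.4, 47.5 and 44.0 CPM (0.47, SE 0.11, adjusted p = 0.00853), so that the alternative subunits of the same enzyme moved in opposite directions. Subunits and factors of polymerase I fell as well, with CD3EAP from 94.7, 129 and 116 CPM to 55.3, 57.6 and 66.6 (-0.92), POLR1E by 0.88 and POLR1B by 0.82. The count lower was 11 without DMSO replicate 2 and also without dBRD9-A replicate 1.

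Structural proteins of the cytosolic ribosome were not called in the edgeR fit of the 6 libraries. Of 78 such genes 0 passed in either direction, against 15.9% of all genes called higher and 16.3% lower. In that fit 2 had an unadjusted p under 0.05. With DESeq2, with limma-voom or with the length or GC trend removed, 1 was lower. The same count was found without dBRD9-A replicate 2 and in the edgeR fit over both lines without OPM2 dBRD9-A replicate 2. Fold changes were below 0 in 72 members and ran from -0.37 to 0.09 with a median of -0.10. The sum of the list was 77140 to 91970 TPM with DMSO and 80790 to 91380 with dBRD9-A. RPL14, which came closest among the members named, had 738, 655 and 612 CPM with DMSO and 526, 587 and 552 with dBRD9-A (adjusted p = 0.0581). Of the 75 genes for mitochondrial ribosomal proteins 36 were called lower and 0 higher (median -0.29), among them MRPS12, from 61.6, 75.7 and 59.2 CPM to 30.1, 43.2 and 40.9 (-0.78), and MRPL4 (-0.73). Translation initiation and elongation factors had 25 of 51 lower, including EIF4EBP1, the repressor of cap-dependent translation (-0.68), and EEF1E1 (-0.65). Aminoacyl-tRNA synthetases had 14 of 36 lower, led by MARS2, from 34.7, 48.5 and 40.4 CPM to 21.2, 19.8 and 26.7 (-0.87), and FARSA, a subunit of the phenylalanyl enzyme (-0.68). Without DMSO replicate 2 these counts were 21, 14 and 9, and without dBRD9-A replicate 1 the mitochondrial count was 22.

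**Figure D3:**
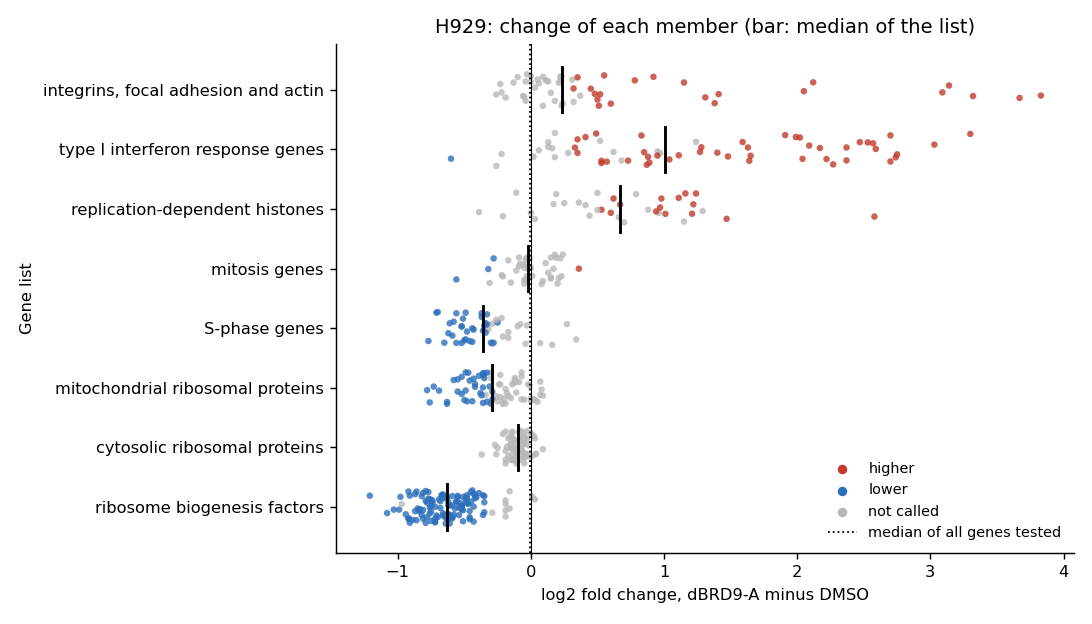
Log2 fold change of every tested member of 8 gene lists in H929, red where called higher, blue where called lower and grey otherwise, with a bar at the median of each list and a dotted line at the median of all genes (-0.01). Ribosome biogenesis factors sit almost entirely below 0 and cytosolic ribosomal proteins close to 0, and the interferon list spreads from -0.60 to 3.30.

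Of 62 tested type I interferon response genes 45 were called higher and 1 lower, beside 15.9% and 16.3% of all genes tested. The median was 1.0 on the log2 scale. DTX3L rose from 3.26, 2.60 and 2.67 CPM to 20.7, 17.9 and 18.9 (log2 fold change 2.75, SE 0.13, adjusted p = 7.61e-07), and PARP14, an ADP-ribosyltransferase that acts with it, from 10.7, 7.91 and 9.12 to 52.8, 39.2 and 61.6 (2.47). PARP9, which forms a complex with DTX3L, rose by 2.37. In the IFIT family of antiviral RNA-binding proteins, IFIT1 rose from 2.36, 2.74 and 2.05 CPM to 13.4, 10.9 and 17.2 (2.53), IFIT3 from 5.68, 3.39 and 4.42 to 28.5, 27.1 and 26.1 (2.59), and IFIT5 from 1.09, 0.953 and 0.737 to 7.25, 5.18 and 6.19 (2.74). LGALS3BP went from 1.07, 0.953 and 1.11 to 8.10, 10.9 and 6.65 CPM (3.03, SE 0.20, adjusted p = 6.9e-06). OAS3, a sensor of double-stranded RNA, rose from 0.441, 0.545 and 0.386 to 2.90, 2.90 and 3.16 CPM (2.70). In each of these genes every treated library stood above every DMSO library by more than the spread within either group. They were chosen among the called members, and the groups did not overlap in 47.2% of all genes tested.

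Other members of the response varied more between the treated libraries than their mean changed. The following were chosen after their values were seen. MX1, an antiviral GTPase, had 30.8, 50.5 and 33.6 CPM with DMSO and 71.5, 49.4 and 159 with dBRD9-A, so that treated replicate 2 lay below DMSO replicate 2. It was called (log2 fold change 1.28, SE 0.34, adjusted p = 0.0147), and the fold change was 0.67 without dBRD9-A replicate 3 (adjusted p = 0.0202). DESeq2 ended the call of MX1 (1.29, adjusted p = 0.0643). ISG15, the ubiquitin-like modifier of the response, stood at 6.31, 9.55 and 4.69 CPM with DMSO against 8.49, 7.14 and 15.9 with dBRD9-A and was not called (0.62, adjusted p = 0.129), OAS2 at 63.1, 65.0 and 63.5 against 71.6, 56.1 and 104, and IFI6 at 7.04, 17.3 and 8.69 against 17.4, 11.6 and 34.6. All 4 have dBRD9-A replicate 3 as the highest library and replicate 2 as the lowest of the treated ones, with DMSO replicate 2 the highest of the controls. XAF1, an apoptosis-promoting gene, shared that order but was separate between groups, at 0.897, 1.63 and 0.755 against 8.001, 4.33 and 19.94 CPM (3.30, SE 0.50, adjusted p = 0.000687, and 2.51 without dBRD9-A replicate 3). Over the list, this full order was found in 21 of 62 members (33.9%, beside 10.5% of all genes tested). DMSO replicate 2 and dBRD9-A replicate 3 were the highest of their groups, whatever the lowest, in 27 members (43.5%, beside 19.5%), and the part of these libraries in the result was not tested. Leaving out an H929 library gave 36 to 49 members called higher, the lowest without dBRD9-A replicate 3.

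STAT2 and IRF9 belong to ISGF3. STAT2 rose from 70.5, 55.5 and 62.2 CPM to 123, 124 and 117 (0.95, SE 0.10), and IRF9 from 23.9, 24.3 and 23.7 to 39.8, 36.3 and 56.4 (0.88). The treated libraries of STAT2 lay close together, whereas IRF9 had the order of MX1, with replicate 3 highest and replicate 2 lowest. The member called lower was SAMD9, a growth-restraining antiviral gene, at 42.3, 33.8 and 48.9 against 32.4, 17.6 and 32.2 CPM (-0.60, adjusted p = 0.0435). That call ended in 7 of 19 other settings, among them the fits without DMSO replicate 1 (-0.59, adjusted p = 0.0854), DMSO replicate 3 (-0.48, adjusted p = 0.145) or dBRD9-A replicate 2 (-0.35, adjusted p = 0.0828).

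Among 24 tested genes of nucleic acid sensing, 9 were called higher and 2 lower (median 0.08). The shares over all genes tested were 15.9% and 16.3%. TMEM173, which encodes the adaptor STING that relays the sensing of cytosolic DNA, rose from 15.7, 7.78 and 12.1 CPM to 93.3, 110 and 66.4 (log2 fold change 2.92, SE 0.24, adjusted p = 1.88e-05). Unlike MX1, it was lowest in replicate 3 among the treated libraries. MAVS, the adaptor of the RNA sensors, rose from 213, 139 and 198 CPM to 428, 405 and 317 (1.06). The sensors TLR3, at 0.944, 0.834 and 1.09 against 3.45, 3.15 and 4.74 CPM (1.99), DHX58 (1.40) and DDX58, which encodes RIG-I (1.11), were also called higher. TRAF3, a ligase that passes the signal on and restrains non-canonical NF-kB, fell by 0.50. Antigen presentation gave 6 of 22 higher and 2 lower, beside 15.9% and 16.3% of all genes tested, with 0 lower in 4 of the 6 fits without 1 library. CTSS, the protease that trims the class II invariant chain, went from 28.3, 35.1 and 30.4 CPM to 57.2, 48.0 and 67.3 (0.88), CIITA, the class II transactivator, rose by 1.27 from levels of 0.255 to 0.632 CPM, and HLA-F, a non-classical class I gene, by 0.78. HLA genes are close copies of each other, so reads may be split between them.

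S-phase genes fell and mitosis genes mostly did not pass the test. Over all genes tested 16.3% were called lower and 15.9% higher. Of 49 S-phase genes 33 were called lower and 0 higher (median -0.36), and of 42 mitosis genes 3 lower and 1 higher (median -0.03). Among those 3 was MAD2L1, of the spindle checkpoint, from 87.8, 92.0 and 86.0 CPM to 59.8, 56.0 and 63.8 (-0.56). Without DMSO replicate 2 the counts of mitosis genes were 1 lower and 0 higher. CDC45, of the replicative helicase, went from 59.0, 63.2 and 57.5 CPM to 32.0, 38.9 and 34.4 (-0.77, SE 0.10, adjusted p = 0.000282), and MCM10, which acts with it at origins, from 104, 114 and 114 to 66.7, 68.9 and 67.8 (-0.71). MCM6, a helicase subunit, fell by 0.65. Among G1 regulators 10 of 27 were lower and 6 higher, beside the same 16.3% and 15.9% of all genes tested. CCND2, cyclin D2, fell by 2.26 (SE 0.24, adjusted p = 8.45e-05), from 20.7, 36.8 and 24.2 CPM to 5.28, 4.15 and 7.52, and CCND1, cyclin D1, by 0.66, from 166, 210 and 177 to 116.7, 100.6 and 133.4. Of the other cell cycle drivers, CCNE1, cyclin E1, fell by 0.73 and the phosphatase CDC25A by 0.90, while CDKN2D, an inhibitor of the cyclin D kinases, rose by 0.57.

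Replication-dependent histone genes that were called moved the other way from the S-phase genes. Their transcripts normally end in a stem-loop without a poly(A) tail, so in a poly(A)-selected library they show only the polyadenylated part. Of 58 genes 35 passed the filter on low counts, 15 of these were called higher and 0 lower, and the median was 0.67. Over all genes tested 15.9% were called higher and 16.3% lower. Counts in 1 group alone can meet the filter, so the count and the median include members that passed through their rise. HIST1H4K, an H4 gene, is an example, at 0.0157, 0.0340 and 0.0526 CPM with DMSO and 0.217, 0.201 and 0.214 with dBRD9-A. HIST2H2BE, an H2B gene, went from 5.42, 5.48 and 7.39 CPM to 17.9, 9.96 and 15.3 (1.24), and HIST1H2AC, an H2A gene, from 1.86, 1.97 and 2.63 to 7.63, 4.06 and 6.15 (1.47). Treated replicate 2 was the lowest treated library in both. SLBP, the protein that binds the histone stem-loop, fell from 126, 137 and 125 CPM to 75.4, 83.1 and 79.3 (-0.70). Histone genes are near-identical copies, so the share of reads each one received is uncertain, and without dBRD9-A replicate 1 the count was 8.

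Few survival genes passed the test. In the BCL2 family 1 of 19 genes was called higher and 1 lower, against 15.9% and 16.3% of all genes tested. The riser was BMF, a BH3-only activator of apoptosis, from 132, 120 and 134 CPM to 250, 259 and 253 (0.98, SE 0.09, adjusted p = 3.43e-05). Targets of p53 split into 6 higher and 5 lower of 26, beside 15.9% and 16.3% of all genes tested. TP53INP1, a stress-induced regulator of autophagy and death, rose from 20.1, 13.8 and 20.4 CPM to 57.7, 39.7 and 40.5 (1.34). The p53 count higher was 2 without DMSO replicate 2 or 3 and 3 without dBRD9-A replicate 1 or 3, and the count lower was 2 without DMSO replicate 2 or dBRD9-A replicate 1 and 3 without DMSO replicate 3.

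Nucleotide and folate synthesis had 22 of 32 genes lower and 1 higher (median -0.47), with CTPS1, CTP synthase, from 165, 214 and 176 CPM to 88.8, 103 and 118 (-0.84) and PPAT, the first committed enzyme of purine synthesis, at -0.75. Polyamine genes had 8 of 19 lower and 2 higher, beside 16.3% and 15.9% of all genes tested, with 5 lower without DMSO replicate 2. SRM, spermidine synthase, went from 282, 346 and 299 CPM to 136, 185 and 169 (-0.92), and the oxidase SMOX, which breaks spermine down, rose from 10.7, 9.87 and 8.67 to 16.8, 19.9 and 15.4 (0.83). In the methionine branch, MAT2A, which makes the methyl donor S-adenosylmethionine, fell by 0.64. Targets of ATF4, the factor of the amino acid response, had 16 of 30 lower and 2 higher (median -0.39). Among them STC2, a secreted stress hormone, fell from 88.7, 117 and 79.0 CPM to 36.5, 33.6 and 47.3 (-1.28), the cystine transporter SLC7A11 by 1.0 and PSAT1, of serine synthesis, by 0.74, while VLDLR, a lipoprotein receptor, rose by 1.24.

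Glycolysis had 10 of 24 lower and 1 higher, among them SLC16A1, the lactate carrier, from 173, 237 and 209 CPM to 116, 98.4 and 129 (-0.85) and HK2, hexokinase 2 (-0.74). The count lower was 5 without DMSO replicate 1 or dBRD9-A replicate 3 and 6 without DMSO replicate 2. In cholesterol synthesis 6 of 27 were lower and 1 higher, beside 16.3% and 15.9% of all genes tested. DHCR7, the last enzyme of the pathway, was at -0.69 and SQLE, squalene epoxidase, at -0.56. Oxidative phosphorylation had 3 of 74 lower and 1 higher (median -0.09), and the count lower ran from 0 without DMSO replicate 2 or dBRD9-A replicate 1 to 9 without dBRD9-A replicate 2.

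Genes of adhesion and the actin skeleton gave 22 of 54 higher and 0 lower (median 0.23), beside 15.9% and 16.3% of all genes tested. TNS1, tensin 1, which ties integrins to actin, rose from 1.68, 1.23 and 1.37 CPM to 24.9, 21.2 and 14.9 (log2 fold change 3.83, SE 0.21, adjusted p = 1.71e-06), and SYNPO, an actin-binding synaptopodin, from 1.01, 1.07 and 1.12 to 14.8, 11.2 and 14.9 (3.67). ITGB3, the integrin beta 3 chain, rose from 0.283, 0.340 and 0.140 to 2.74, 1.70 and 3.26 CPM (3.32), and its partner ITGAV, the alpha V chain, from 10.9, 11.2 and 11.3 to 22.8, 14.8 and 19.8 (0.78). These risers started low, ITGAV apart, but high-level members rose too. ITGB7, the integrin beta 7 chain through which myeloma cells bind mucosal and marrow ligands, went from 6433, 6761 and 5824 CPM to 8788, 8857 and 9641 (0.52), and MYH9, non-muscle myosin, from 1175, 1130 and 1253 to 1757, 1713 and 1739 (0.55). FMN1, a formin that nucleates actin and was not on the list, rose from 4.52, 4.78 and 4.83 to 33.3, 23.6 and 31.9 (2.65). Of 15 tested matrix genes 5 were higher and 2 lower, with 3 higher without DMSO replicate 2. COL27A1, a fibrillar collagen, went from 6.82, 5.75 and 7.32 CPM to 19.4, 17.6 and 14.2 (1.36), and COL18A1, a basement membrane collagen, from 4.47, 6.417 and 5.001 to 2.07, 2.05 and 3.21 (-1.10).

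Markers of other cell types were checked beside these lists, with 10 markers per type. Those tested had passed the filter on low counts, which counts in 1 group alone can meet. Members high only with dBRD9-A can thus enter, so the counts called describe the tested members and not the marker sets. Over all genes tested 15.9% were called higher and 16.3% lower. Monocyte and macrophage markers summed to 62.2 to 73.4 TPM with DMSO and 159 to 168 with dBRD9-A, with 3 of 5 tested members called higher. Nearly all of that sum was CD68, a lysosomal glycoprotein found in many cell types, with a mean of 62.1 TPM with DMSO and 154 with dBRD9-A. CD68 was 114, 137 and 111 CPM with DMSO and 255, 278 and 296 with dBRD9-A (1.19), and CSF1R, the receptor of monocyte growth factor, was 3.86, 1.36 and 1.93 against 7.67, 9.93 and 4.90 (1.64). Epithelial markers summed to 5.376 to 6.999 TPM with DMSO and 10.3 to 16.3 with dBRD9-A, 4 of 5 tested members were higher, among them CDH1 (3.14) from below 0.2 CPM, and 2 markers were at 0 in every library. T cell markers summed to 14.1 to 16.4 against 24.3 to 27.4 TPM. Of these 2 were tested and 2 called higher, CD3E at 0.64 and the other at 2.43. Of the stromal markers 3 of 10 were tested, with FN1 (1.38) and COL1A1 (3.02) called. NK cell markers summed to 7.002 to 8.931 TPM with DMSO and 3.66 to 5.09 with dBRD9-A, with 2 of 4 tested members lower, 0 higher and a median of -0.94. Erythroid and platelet markers summed to 12.9 to 19.1 against 16.7 to 26.0 TPM, with 3 of 4 tested members higher and 1 lower, and mature B cell markers to 4.52 to 5.66 against 6.14 to 8.28 TPM, with 3 of 7 higher and 0 lower. The part of other cells in any of these results was not tested.

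Lysosome and autophagy genes gave 17 of 49 higher and 1 lower (median 0.16), led by CD68, CTSZ, a cathepsin (1.09), and ULK1, the kinase that starts autophagy, from 27.1, 19.9 and 21.9 CPM to 46.33, 49.96 and 40.48 (0.99). NF-kB genes gave 7 of 28 higher and 4 lower, beside 15.9% and 16.3% of all genes tested. Among them NFKBIZ, a nuclear IkB protein, was at 0.61 and the subunit RELB at -0.60. The count higher was 2 without dBRD9-A replicate 1, 3 without DMSO replicate 2 and 4 without DMSO replicate 3. Feedback and early response genes of the MAPK pathway gave 11 of 29 lower and 5 higher, with 3 higher without any 1 DMSO library or dBRD9-A replicate 1. FGFR3, the receptor tyrosine kinase brought under the immunoglobulin enhancer by the 4p16 translocation of this line, fell from 75.3, 84.0 and 87.5 CPM to 31.3, 33.2 and 33.5 (-1.33, SE 0.09, adjusted p = 9.68e-06). The phosphatase DUSP5, which holds back ERK in the nucleus, rose from 698, 803 and 735 to 1257, 1226 and 1332 (0.77). EGR1, an early response factor, went from 26.8, 13.2 and 20.9 CPM to 11.1, 10.2 and 6.10 (-1.16), and the AP-1 member FOSL1 also fell by 1.16.

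**Figure D4:**
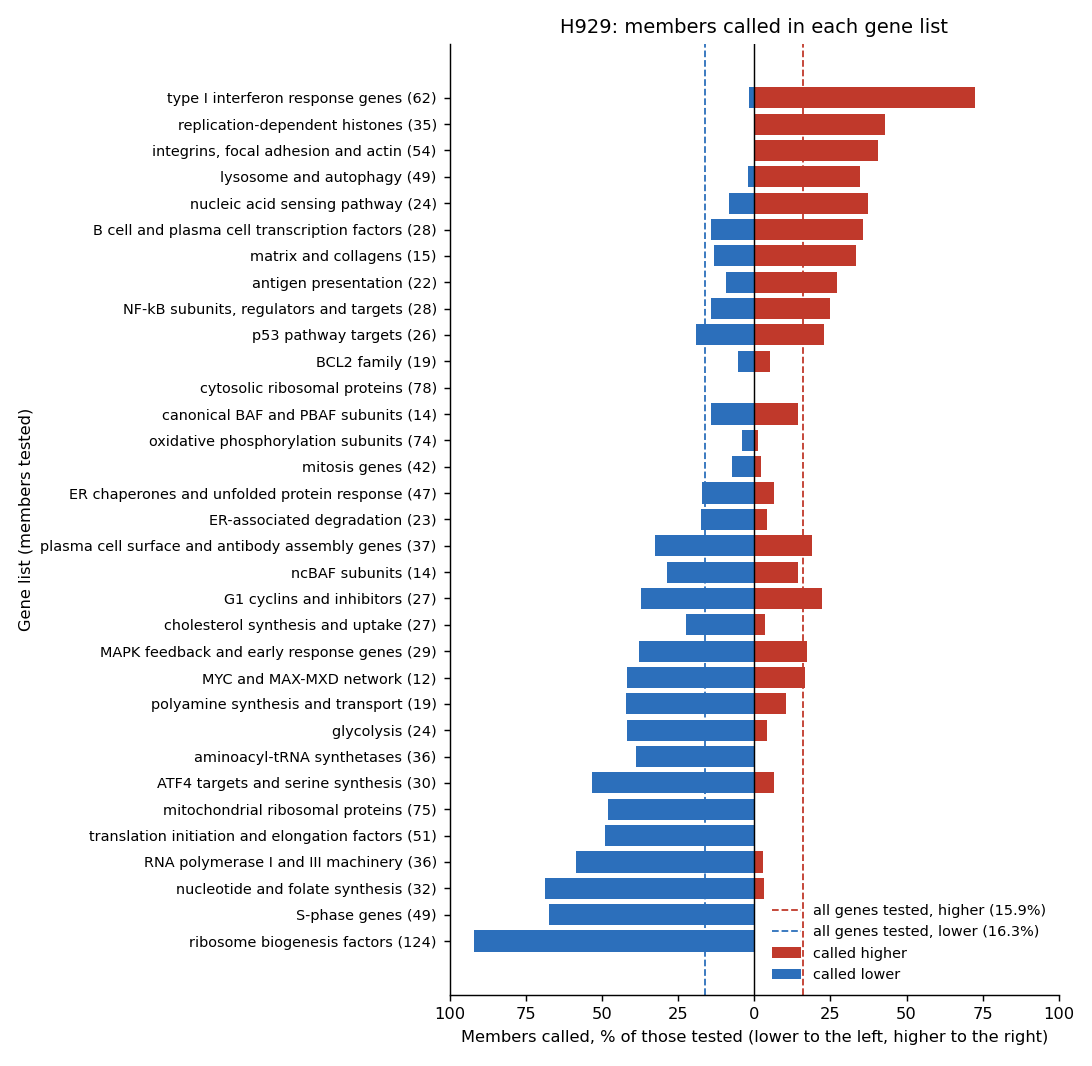
Share of tested members called higher (red, to the right) and lower (blue, to the left) in H929 for 33 gene lists, with dashed lines at the shares over all genes tested, 15.9% higher and 16.3% lower. Ribosome biogenesis (114 of 124 lower) and the interferon response (45 of 62 higher) lie at the ends, and cytosolic ribosomal proteins have no bar.

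Outside the lists, the deepest falls among genes with a mean level of at least 1 log2 CPM included FJX1, of the Four-jointed family, from 8.11, 13.9 and 9.37 CPM to 0.946, 1.45 and 2.25 (log2 fold change -2.74, SE 0.28). CELSR2, a seven-pass cadherin of planar polarity, fell by 2.19, the zinc finger gene ZBTB47 by 2.11 and OAF by 1.75. DDN, which encodes dendrin, went from 104, 183 and 120 CPM to 24.8, 26.7 and 46.6 (-2.05), and RGS16, which shortens G protein signals, from 170, 120 and 116 to 32.7, 40.7 and 36.5 (-1.89). On the other side, SLC7A8, a carrier of neutral amino acids, rose from 1.28, 1.04 and 1.14 to 8.85, 9.42 and 8.46 CPM (2.95, SE 0.15), and OCSTAMP, a membrane protein of fusing osteoclasts, from 12.8, 7.52 and 7.40 to 65.5, 64.0 and 48.2 (2.68). Among the most abundant called genes the falls included HSPA8, the constitutive HSP70, from 4037, 4709 and 4219 to 2519, 2603 and 3110 CPM (-0.66), PTMA, prothymosin alpha (-0.58), and the HSP90 genes HSP90AB1 and HSP90AA1 (-0.47 each). The rises included LMNA, which encodes lamins A and C (0.50), and ITM2C, a plasma cell membrane protein, from 402, 340 and 380 to 708, 791 and 631 CPM (0.93). Counts of RNA45S5, the ribosomal RNA precursor, rose from 939, 1286 and 1258 CPM to 2419, 1398 and 2018 (0.74, adjusted p = 0.00933 in edgeR). Poly(A) selection is meant to leave ribosomal RNA out, so these counts are no measure of how much precursor was made. The direction of RNA45S5 was opposite to that of the ribosome biogenesis factors, and the reason was not tested.

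Only rises met the rule for genes off in one group, which asked for at most 3 counts over one group and at least 10 in each library of the other. AMOTL2, of the angiomotin family, had 1 count in each DMSO library and 18, 27 and 11 with dBRD9-A, and SEMA5A, a semaphorin, had 0, 1 and 1 against 13, 10 and 12. SLC5A1, the sodium-glucose transporter, had 2, 0 and 1 counts against 17, 15 and 29, and GPR50, an orphan receptor, 0, 1 and 1 against 14, 15 and 14. MYBPH, a myosin-binding protein, had 0, 1 and 1 against 18, 22 and 10 and did not pass the filter on low counts. FCGR2C, at 2, 1 and 0 against 42, 16 and 48, is a near copy of other FCGR2 genes, so its reads are uncertain. These levels are below 1 CPM in every library.

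Promoters were matched for 11842 of the 15420 genes tested, over 250 bases before to 50 after the RefSeq start. The ISRE core was found in 350 of them (2.96%), and in 4.84% of the promoters of genes called higher, 9.08% of those at least 2-fold higher and 2.34% of those called lower. In the interferon list 31 of 49 promoters held it, and the share was 63.9% among members called higher and 61.5% among the others, so the core did not separate them. ISG15 and IFI6, which were not called, hold it as IFIT1 and PARP14 do. The E-box was found in 10.1% of all promoters, 13.8% of those of genes called lower and 7.18% of those called higher. Ribosome biogenesis factors had it in 39 of 106 promoters (36.8%), and cytosolic ribosomal proteins, which were not called, in 4.84%. NOP10, TSR2 and WDR46, biogenesis members that were not called, hold it as RRP9 does. Most genes with a match were not called lower: 22.3% of genes with the E-box were, against 15.6% of those without it. These shares describe the windows, and letters outside them were not searched.

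The response of H929 differed from that of OPM2 in 99 of 16400 genes tested (0.604%) by the interaction of line and treatment over 12 libraries in edgeR. SYNPO showed it most firmly among the genes named, with a log2 fold change of 3.67 in H929 and 0.76 in OPM2 (difference 2.95, SE 0.35, adjusted p = 0.00332). Its DMSO level was 1.09 ± 0.0614 CPM in H929 and 5.25 ± 1.46 in OPM2 (SD, n = 3). LY9 rose by 1.33 in H929 and by 0.04 in OPM2 (difference 1.33, adjusted p = 0.0139). ETS1 went up in H929 and down in OPM2, at 0.69 and -0.61 (difference 1.33, adjusted p = 0.0256). In TMEM173 the treated levels were close, 93.7 ± 22.9 CPM in H929 and 99.3 ± 30.4 in OPM2, and the DMSO levels apart, 12.1 ± 4.02 and 53.3 ± 7.43 (difference 2.06, adjusted p = 0.0443). DTX3L, SLC7A8 and FMN1 likewise had the lower DMSO level and the larger rise in H929. LGALS3BP, COL27A1 and CD68 had the higher DMSO level and the smaller rise there, with CD68 at 123 ± 14.5 CPM in H929 and 4.87 ± 1.15 in OPM2 (log2 fold changes 1.19 and 2.77, difference -1.54, adjusted p = 0.0144). SLAMF7 fell less in H929, by 0.62 against 1.66. The count rested on single libraries. It was 509 without OPM2 dBRD9-A replicate 2, which had 24519749 counts against 42897863 to 76587286 in the others, and 35 to 97 without 1 of the others, and of the genes named here SYNPO alone was called in all 13 of the fits with a library left out or with a replicate block.

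**Figure D5:**
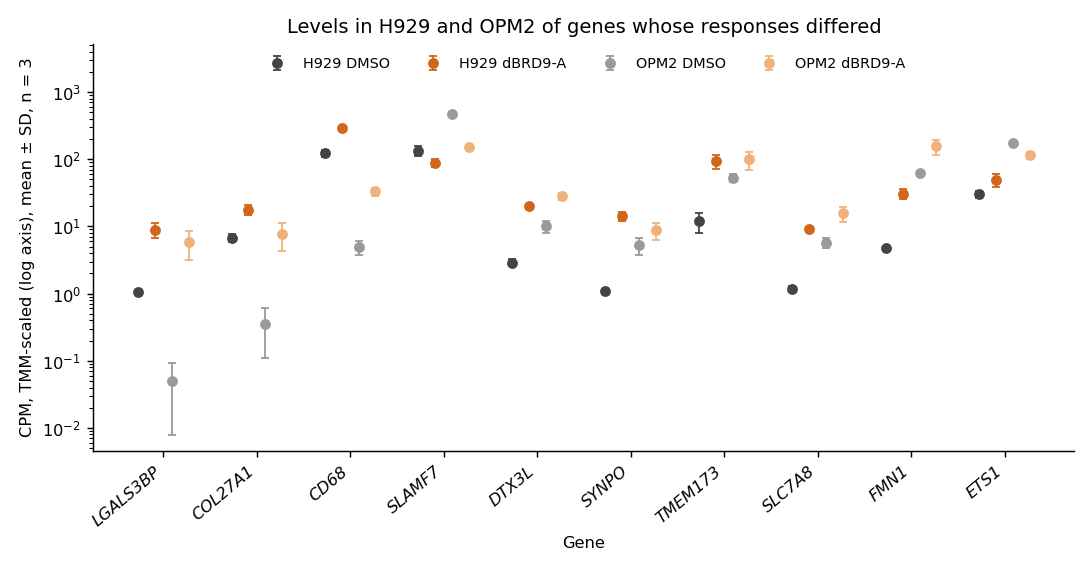
Mean CPM on a log axis with SD (n = 3) in H929 (DMSO dark grey, dBRD9-A dark orange) and OPM2 (light grey and light orange) for 10 genes whose response differed between the lines. DTX3L, SYNPO, TMEM173, SLC7A8 and FMN1 start lower in H929, and LGALS3BP, COL27A1 and CD68 start higher.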

How the data were processed

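RNA of 6 H929 libraries, 3 per group, was compared. The submitters' processing notes name STAR and featureCounts, and hg19 and GRCh37 as builds, and give no version. Per the file headers, the deposited tables hold a whole-number count, an FPKM and a TPM value for 51780 RefSeq transcripts under 25680 symbols. The deposited counts were tested, the deposited TPM values were summed over lists, and the deposited FPKM values gave transcript length. No source used here gives the strand setting of the counting, so reads of genes that overlap on opposite strands may be mixed.

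Of the transcripts of a symbol, the one with most counts on average in the H929 libraries was kept. For BRD9 and IRF4 that was an entry labelled noncoding in RefSeq. Neither call ended when counts were summed over the transcripts of a symbol. Genes were filtered with filterByExpr, scaled with TMM factors and tested with edgeR 4.0.16 (R 4.3.3) by quasi-likelihood, with 4 residual degrees of freedom and Benjamini-Hochberg adjustment over all genes, and were called at an adjusted p under 0.05. Alternatives included DESeq2 1.42.0 and limma 3.58.1. The fit was also run on simulated counts with the same relative spread for every gene. These lacked the GC-linked deviations of the libraries, so the run does not test the fit against them. The members and gene lists were chosen with earlier results of these data known. The naming rule gave 213 genes (a fixed set, the largest and the most abundant changes, leading list members, genes off in 1 group and differences between the lines), of which the text takes a choice. PARP14, PARP9, OAS3, STAT2, IRF9, MX1, ISG15, OAS2, IFI6, FBL, MAVS, ITGAV, PRDM1, TNFRSF17, SDC1, XBP1, CD3E, CSF1R, CDH1 and FN1 lie outside it and were picked after their values were seen. NOP10, TSR2 and WDR46 also lie outside the rule and were named for their promoter matches. None of the genes named is among 137 symbols whose counts lay within 5% of another symbol's in every library.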

Additional observations from a re-analysis of the deposited data

Results flagged for a closer look

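The 11 results here are differences of the response between the lines, tested as the interaction of line and treatment in edgeR and given as H929 minus OPM2 on the log2 scale. The differences above 0 were 2.95 for SYNPO, 2.06 for TMEM173, 1.54 for SLC7A8, 1.39 for FMN1, 1.33 for ETS1, 1.33 for LY9, 1.30 for DTX3L and 1.07 for SLAMF7, and those below 0 were -3.82 for LGALS3BP, -3.06 for COL27A1 and -1.54 for CD68. With no library left out, their adjusted p ran from 0.00332 to 0.0443. Among 13 other settings the call ended in 0 for SYNPO, 2 for CD68, 4 for LY9, 6 for LGALS3BP, 9 for ETS1, 10 for SLAMF7, COL27A1 and SLC7A8, 11 for DTX3L and FMN1, and 12 for TMEM173. LGALS3BP in OPM2 with DMSO stood at 0.0495 ± 0.0417 CPM (SD, n = 3), so its fold change there depends on the prior count.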

How the results depend on the processing

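The count of 4973 genes called in H929 lay between 3313 and 4796 when 1 H929 library was left out (higher 1775 to 2492, lower 1511 to 2304), the lowest without DMSO replicate 2 (1511 lower) and also low in falls without dBRD9-A replicate 1 (1656 lower). A spread shared over the 12 libraries of both lines gave 2158 (1336 higher, 822 lower). In that fit ribosome biogenesis factors had 66 members called lower, and with every other setting 99 to 115. Without OPM2 dBRD9-A replicate 2 the shared fit gave 3197 higher and 2756 lower. No library correlated best with its own replicate number across groups (same-number correlations -0.15, -0.16 and -0.10). The highest correlations were those of DMSO replicate 1 with dBRD9-A replicate 2 (0.53), 2 with 3 (0.72) and 3 with 1 (0.67). Libraries of the groups thus deviated together under other numbers. The reason was not tested, and no fit used that pairing. With the labelled replicate numbers as a block, 2080 genes were higher and 2120 lower, and with the block and the GC trend removed 2474 and 2149. For the difference between the lines (99 genes, 54 higher and 45 lower), the block gave 13 (6 higher, 7 lower) and leaving out 1 of 12 libraries 35 to 509 (higher 16 to 272, lower 16 to 237). SDC1, not called, was 0.04 on the log2 scale by library size and ran from -0.11 to 0.05 with 1 library left out, above 0 only without dBRD9-A replicate 3, and XBP1, not called, was 0.01 by library size, in place of values below 0. No other fold change changed sign among the named genes that were followed through these settings. Not every gene named was, and DPF1, SMARCD2, RNA45S5, HIST1H4K and the genes off in 1 group were not. The cause of these shifts was not tested. The 4 residual degrees of freedom limit the precision for genes that vary between replicates.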

Other observations

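The protocadherin gamma cluster, whose cell adhesion proteins differ in their first exon and share their last exons, appears under 22 symbols, and all 22 were called higher in H929 with log2 fold changes from 1.41 to 1.63. Their median level was 1.72, 1.96 and 1.68 CPM with DMSO and 6.09, 5.42 and 4.54 with dBRD9-A, and no symbol overlapped between the groups. In each library the 22 symbols lay close together, for example from 5.91 to 6.78 CPM in dBRD9-A replicate 1. Reads of the shared exons cannot be assigned to 1 symbol, so these calls describe 1 locus and add 22 to the count of genes called higher. The group was noticed after the values were seen.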
